A study of Mus musculus with 20 samples.

Results

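The cytosolic ribosomal proteins were 45 genes, 24 of the large subunit and 21 of the small, among the 18194 genes measured on the arrays. They were every gene whose symbol has the form of a ribosomal protein name (Rpl, Rps or Rplp, a number and, in some, a final a, l or x) and that had a probe set assigned to it alone. A probe set is a group of array oligonucleotides read together, and it can read more than 1 transcript. The 45 genes had 98 probe sets assigned to 1 gene, and each gene was read from its brightest by mean over the 20 cells. Of the 45 used, 13 were of the x_at type and 2 of the s_at type, whose oligonucleotides can also match other transcripts.

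The study measured transcripts in single cells of the inner cell mass, the cells inside the blastocyst that form epiblast and primitive endoderm. The blastocysts were C57BL/6 mouse embryos at embryonic day 3.5. Of 55 cells picked after trypsin dissociation, 50 were positive for Oct4 and negative for Cdx2 by PCR, and 20 went on arrays, 1 amplified cDNA per array. All 20 cells formed 1 group with no treatment, and no label says which embryo a cell came from, so p-values cover only the spread between these samples.

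The cytosolic ribosome is made of ribosomal RNA and one copy of most ribosomal proteins, so cells make these proteins in closely matched amounts. Their messages are abundant in growing cells, and many begin with a terminal oligopyrimidine tract, a C followed by a run of C and T, through which the mTOR pathway regulates their translation. Some proteins have a second gene, a paralog, that can take the place of the canonical protein.

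The 40 bases around the annotated transcription start are shown for the stalk proteins, for the paralogs and their partners that had an entry in the promoter table, for Rpl35 as a member with a long tract, and for Rps3, the member with the smallest variance ratio. Each sequence runs 5′ to 3′ with 20 bases before the start and 20 from it, from RefSeq, build GRCm38.p6. The array values carry no genome build. Capitals mark a C within 5 bases of the start, on either side, with the unbroken run of at least 4 C or T that follows it. Rps27l and Rpl3l each had a further annotated start that is not shown.
Rplp0 (chr5:115559447-115559486, + strand): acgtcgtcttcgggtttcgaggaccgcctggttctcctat
Rplp2 (chr7:141447631-141447670, + strand): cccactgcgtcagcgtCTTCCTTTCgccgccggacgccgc
Rpl39 (chrX:37085203-37085242, - strand): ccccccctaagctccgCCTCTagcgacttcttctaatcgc
Rpl39l (chr16:10170208-10170247, + strand): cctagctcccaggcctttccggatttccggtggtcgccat
Rps27 (chr3:90213629-90213668, - strand): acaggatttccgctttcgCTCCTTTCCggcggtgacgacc
Rps27l (chr9:66946066-66946105, + strand): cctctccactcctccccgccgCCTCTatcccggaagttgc
Rps4x (chrX:102189372-102189411, - strand): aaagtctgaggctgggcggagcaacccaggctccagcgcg
Rpl3l (chr17:24727806-24727845, + strand): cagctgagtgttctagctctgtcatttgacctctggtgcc
Rpl35 (chr2:39005112-39005151, - strand): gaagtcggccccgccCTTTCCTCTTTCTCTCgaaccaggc
Rps3 (chr7:99483690-99483729, - strand): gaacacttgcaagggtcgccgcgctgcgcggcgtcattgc

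Levels below are log2(intensity + 8.49) after quantile normalization, a scale that starts at 3.25 for an unread probe set. The floor of an array, set from probe sets of genes of unrelated tissues, lay between 6.38 and 6.92. The cells were checked against lineage markers. Pou5f1, which encodes Oct4, was above the floor in all 20 cells (lowest 9.65, median 10.84, highest 11.58). Of the 11 trophectoderm markers, 4 (Elf5, Gata3, Krt7 and Krt19) were above the floor in 0 cells. Cdx2 was above it in 19 cells at a mean level of 7.42 ± 0.35 (SD, n = 20), and Hand1 in all 20 at 13.70 ± 0.081. This mean of Hand1 was above that of every ribosomal protein gene (highest 13.54, Rplp2). The remaining markers were above the floor in some cells: Tfap2c in 13, Krt8 in 11, Eomes in 9, Lgals3 in 5 and Krt18 in 3. Array medians of the deposited intensity ran from 25.6 to 30.2, apart from 15.005 in cell 19, so results are also given without cell 19 where that changes them.

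Ribosomal protein genes were among the brightest signals in every cell. Of the 45, 38 were above the floor in all 20 cells (84.4%), against 18.5% of all 18194 genes. The median level of the 45 was 13.12, against 6.06 over all genes, which placed the median member at percentile 99.8. The 20 brightest genes of the arrays included 12 members, the brightest 50 included 27, and the brightest 200 included 35. Probe sets differ in brightness per transcript, so these ranks describe the signals and not copy number. In each cell, the median over members lay between 13.06 (cell 17) and 13.18 (cell 15).

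The levels fell into a bright set and a few dim probe sets. A mean level of 12 or above, a bound taken after the values were seen, held 36 members, with means from 12.11 (Rps4l) to 13.54 (Rplp2). Just under this bound was Rps15, a protein of the small subunit head, at 11.36 in the lowest cell, 11.88 at the median and 12.32 in the highest. The next member, Rpl12, had a mean of 9.55, so no member lay between it and Rps15. The values of every member by cell show the bright set as a near vertical column and the other members spread to the left.

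**Figure D1:**
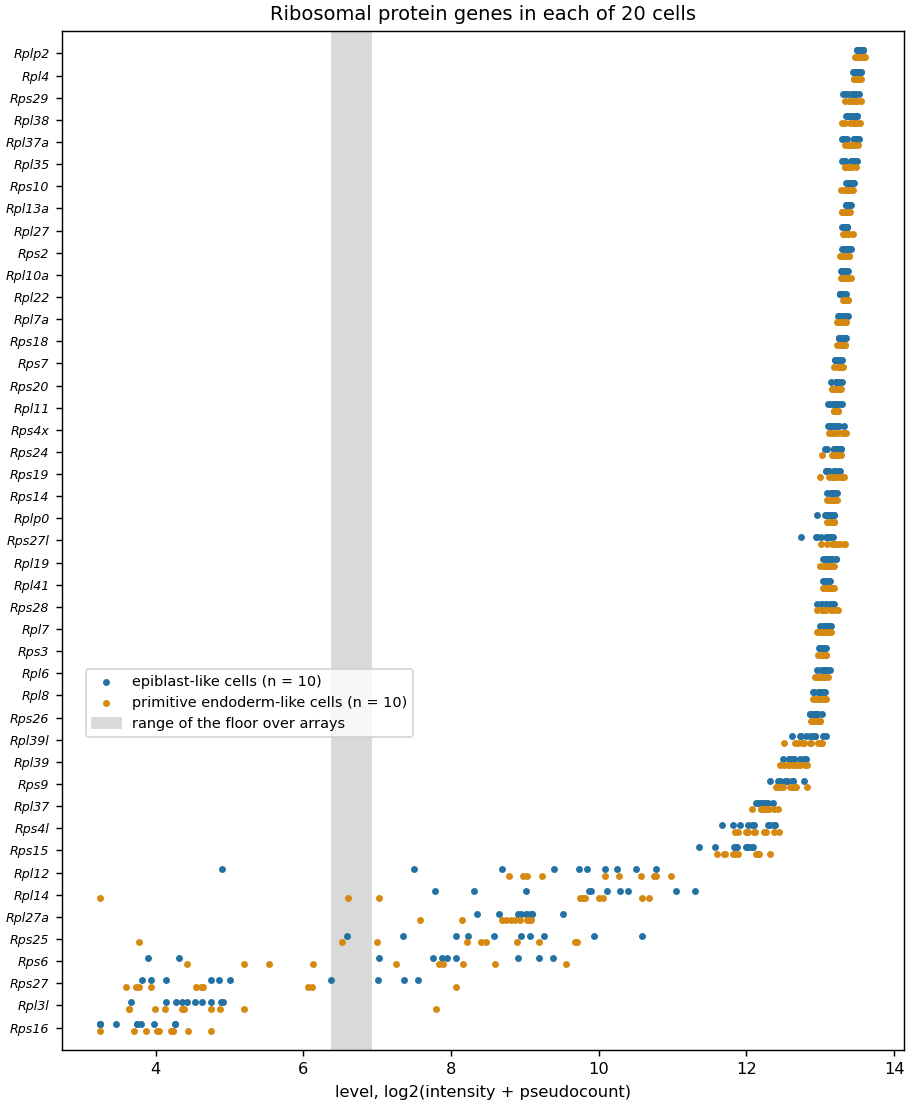
Level of each of the 45 ribosomal protein genes in each of the 20 cells, on the log2(intensity + pseudocount) axis, sorted by mean. Blue points are the 10 epiblast-like cells, orange points the 10 primitive endoderm-like cells, and the grey band is the range of the floor over arrays. The 36 brightest genes span narrow ranges between 11.67 and 13.61 in every cell, while 7 genes fall to or below the floor in some cells.

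The bright members also had small spreads over cells. Among the 36, the SD over 20 cells ranged from 0.031 (Rpl27) to 0.22 (Rps4l), with a median of 0.051, and the median distance from the lowest to the highest cell was 0.18. For 17 of them the SD was under 0.05, for 14 it lay from 0.05 to 0.1, and for 5 it was above (Rpl39, Rpl39l, Rps27l, Rps4l and Rps9). With deposited values, not normalized again, the median SD was 0.050. Of the tested genes, the 20 with the smallest SD included 16 members. Over the 43 members tested, the median SD was 0.057, against 1.05 over the 10423 genes tested, each above the floor in 3 or more cells.

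Genes with bright signals had small spreads in general, so each variance was divided by the variance fitted for genes of the same mean level (the variance ratio). Members were among the genes fitted, and between levels of 13.2 and 13.4 they were 13, beside 7 other genes. Their ratios are thus in part taken against their own trend, while the shares over all tested genes take in every level. The median ratio of members was 0.60, against 1.96 over all tested genes. A ratio below 1 was found for 25 of 43 members (58.1%), against 30.5% of all tested genes, and above 1 for 18. No member passed the test for a variance below the trend (limma's variance fit, F test, Benjamini-Hochberg over all genes), with 2.33% of all genes called. At an unadjusted p under 0.05 this test held 6 members (13.95%), against 13.4% of all genes, so this count was close to the background. It held 3 members without cell 19. After adjustment, Rps3 was called even with no filter on low values (1.21% of all genes called), Rps4x with the mean of all probe sets (2.08%), and Rpl27, Rpl41, Rps14, Rps26 and Rps3 with values raised to the floor (3.18%). No member passed the test for a variance above the trend, in which 0% of all genes were called, and 0 members had an unadjusted p under 0.05, against 0.297% of genes.

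Set beside other bright genes, the members' median spread was the smaller in all 5 bands of level compared. Between levels of 13.2 and 13.4 the median SD was 0.037 for 13 members and 0.069 for 7 other genes. Between 13 and 13.2 it was 0.055 for 11 members and 0.089 for 19 others. Between 12.5 and 13 the values were closer, at 0.11 for 5 members and 0.13 for 57 others. These bands were drawn after the values were seen and carry no test. The bright members also lay near the top of the intensity scale: in deposited values, their median distance below the brightest probe set of each array was 0.49 log2 units, and 32 of the 36 were within 1. The part of this in the small spreads was not tested.

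**Figure D2:**
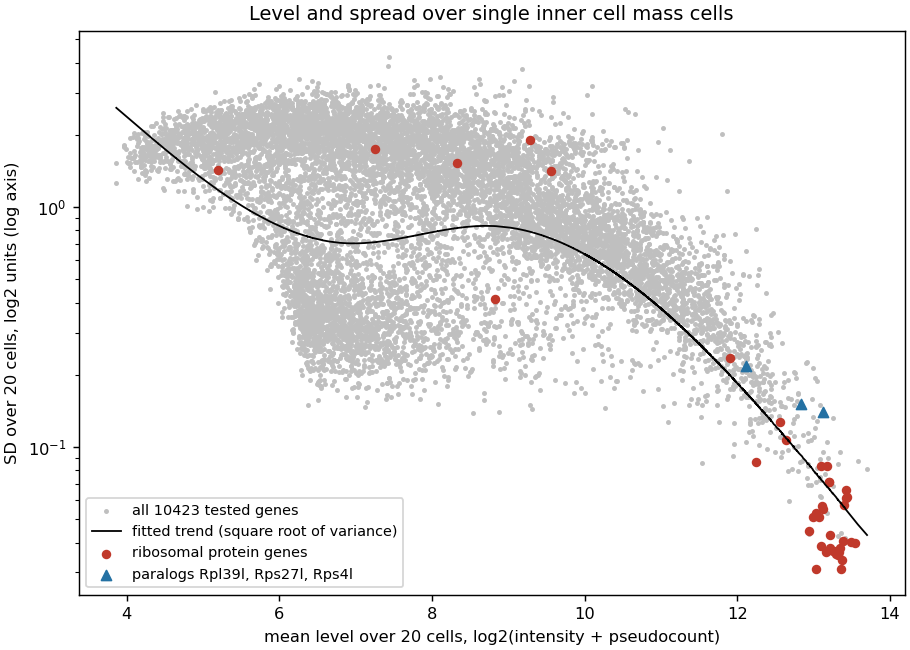
SD over the 20 cells (log axis, log2 units) against mean level, log2(intensity + pseudocount), for the 10423 tested genes in grey, ribosomal protein genes in red and the paralogs Rpl39l, Rps27l and Rps4l as blue triangles. The line is the trend of the variance fit as an SD. Most members sit at the lower right with an SD under 0.1, and the 3 paralogs lie above the line.

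The ribosomal stalk recruits elongation factors to the large subunit, and its base is Rplp0. Rplp0 was at 12.96 in the lowest cell, 13.14 at the median and 13.19 in the highest (SD 0.055). Rplp2, which binds Rplp0 as a dimer with Rplp1, was at 13.47, 13.55 and 13.61 (SD 0.040) and had the highest mean of the members' probe sets. Rplp2 ranged over 0.14 and Rplp0 over 0.23 log2 units. Rplp1 had no probe set of its own, and the one annotated to it with another gene was at 13.39 (13.33 to 13.47).

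Large subunit members had the lower variance ratios, with a median of 0.47 and 17 of 23 tested genes below 1 (30.5% over all tested genes). The lowest was that of Rpl27a at 0.25, but this probe set was dim (lowest 7.58, median 8.94, highest 9.51). Rpl41, the smallest ribosomal protein, had a ratio of 0.28 and levels of 13.04, 13.10 and 13.18. Rpl27 also had 0.28, with 13.30, 13.36 and 13.44. Rpl37 had 0.32, with 12.07, 12.24 and 12.42. In these 3 bright genes the lowest and highest cells were close together. The highest ratios were those of Rpl14 (5.77), Rpl12 (3.65), Rpl39l (2.70) and Rpl37a (1.45), and only Rpl37a combined a bright signal (13.30, 13.44 and 13.52) with a canonical symbol.

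Small subunit members had a median ratio of 1.17, with 8 of 20 tested genes below 1 (30.5% over all tested genes). The median SD of the tested members was 0.071 in the small subunit and 0.053 in the large. Among members at level 12 or above these SDs were closer, at 0.053 and 0.051. The variance ratios of the subunits were not compared within this bright set, and the difference between subunits was not tested. Rps3, which lines the entry channel of the messenger RNA, had the smallest ratio of all members, 0.16. It was at 12.97 in the lowest cell, 13.05 at the median and 13.07 in the highest, and its adjusted p was 0.13 in limma's variance fit. The next were Rps26 (0.28), Rps14 (0.28) and Rps7 (0.33), with SDs from 0.037 to 0.044. The highest ratios were those of Rps6 (5.98), Rps27l (3.81), Rps25 (3.48) and Rps4l (1.65). Rps6, the substrate of S6 kinase, and Rps25 were read by dim probe sets described further on.

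Of the 4 paralogs, Rps27l, Rpl39l and Rps4l gave signals far above the floor in every cell, and Rpl3l did not. Rps27l, a paralog of Rps27 known as a target of p53, was at 12.74 in the lowest cell (18), 13.13 at the median and 13.34 in the highest (10), with an SD of 0.14. Rpl39l, a paralog of Rpl39 at the peptide exit tunnel that is known for its expression in male germ cells, was at 12.51 (cell 17), 12.86 and 13.07 (cell 12), with an SD of 0.15. Its partner Rpl39 was at 12.45, 12.63 and 12.82, with an SD of 0.11. The ranges of this pair overlapped.

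Rps4l was at 11.67 in the lowest cell (1), 12.10 at the median and 12.44 in the highest (17), with an SD of 0.22, the largest of the 36. Rps4x, its X-linked partner, was at 13.10, 13.19 and 13.35 with an SD of 0.071. The 3 bright paralogs had variance ratios of 3.81 (Rps27l), 2.70 (Rpl39l) and 1.65 (Rps4l), and none was called variable (smallest adjusted p over members 0.73 in limma's variance fit). Against the median ratio of all tested genes, 1.96, Rps27l and Rpl39l were above and Rps4l below. The other 33 bright members had a median ratio of 0.46, with 24 below 1, and a largest SD of 0.13. Rpl3l, the muscle paralog of Rpl3, was at 3.64, 4.40 and 7.80 and above the floor in 1 cell (cell 4). Rpl3 had no probe set of its own, and the brightest it shares was at 13.25 (13.18 to 13.33).

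**Figure D3:**
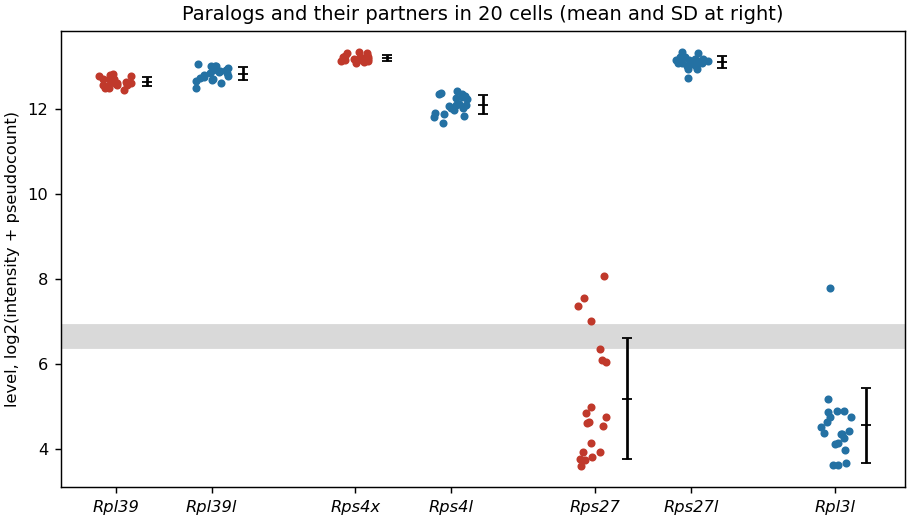
Levels in each of the 20 cells, log2(intensity + pseudocount), of the paralogs (blue) and their canonical partners (red), with the mean and SD at the right of each group of points and the range of the floor as a grey band. Rpl39l, Rps4l and Rps27l lie far above the floor in every cell, Rpl3l is above it in 1 cell, and the single-gene probe set of Rps27 is above it in 4.

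Canonical genes with a dim probe set of their own were also listed on bright probe sets that they share with other genes. Rps16, on the small subunit head, was at 3.25, 3.93 and 4.75 and above the floor in 0 cells. A probe set annotated to Rps16 together with other genes was at a mean of 13.50 (13.44 to 13.55 over the cells). Rps27 was above the floor in 4 cells (3.60, 4.69 and 8.07), and its shared probe set was at 12.74 (12.23 to 13.22). Rps6 was above the floor in 14 cells (3.90, 7.86 and 9.56), and the brightest of its shared probe sets was at 13.44 (13.37 to 13.49). In all 3 genes the shared signal was bright in every cell.

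Rps25 was above the floor in 17 cells (3.77, 8.53 and 10.58), with a shared probe set at 12.89. Rpl14 was above it in 18 cells (3.25, 9.89 and 11.30), with one at 13.47. Rpl12, at the base of the stalk, was above it in 19 (4.90, 9.96 and 10.98), with one at 13.35. Of the 7 members not above the floor in every cell, 6 had shared probe sets, 20 in number, and 19 of those were above the floor in all 20 cells. Rpl3l was the exception. A shared probe set can read any of its annotated genes, so it gives no level for 1 of them. A further 28 symbols of the family had only shared probe sets and are no members here. The brightest shared probe set of each of the 28 was above the floor in all 20 cells, with means from 12.86 to 13.66.

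**Figure D4:**
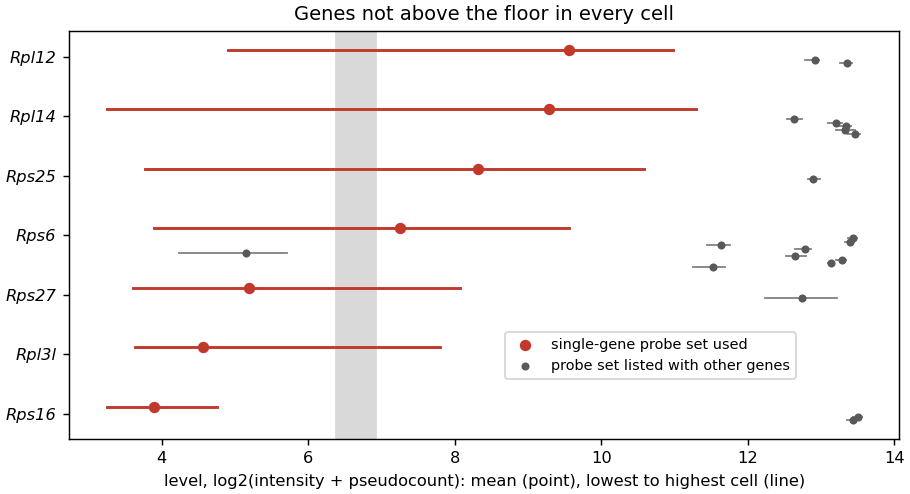
Mean level (point) and lowest to highest cell (line) over the 20 cells, log2(intensity + pseudocount), of the single-gene probe set (red) of the 7 genes not above the floor in every cell, and of the probe sets annotated to the same gene together with others (dark grey). The light grey band is the range of the floor. All but 1 of the 20 shared probe sets lie above the floor in every cell, and Rpl3l has none.

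Probe sets of 1 member often stood far apart in level. The widest gap between the brightest and the dimmest was in Rps20 (9.04 log2 units), then Rps18 (7.97), Rpl35 (7.85) and Rps10 (7.80). Rps20 was read at a mean of 13.22 by one probe set and 13.20 by another, but at 4.24 and 4.17 by 2 others. For Rps3, a probe set other than the one used had a mean of 8.51 with an SD of 2.20 and was above the floor in 17 cells. The 38 members above the floor in every cell had further probe sets, of which 37 were above the floor in all cells, with a median SD of 0.061, and 15 were not, with a median SD of 1.50. The small spreads therefore belong to the bright probe sets and not to every probe set of these genes.

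Bright probe sets of the same member followed each other over the cells. Over 64 pairs from 18 genes, all above the floor in every cell, the median Pearson's r over 20 cells was 0.68, and 45 pairs were above 0.5. For 2711 pairs from different members the median was -0.0050, with 64 pairs above 0.5. The 3 probe sets of Rps27l had r from 0.95 to 0.97, those of Rps24 from 0.74 to 0.95 and those of Rpl7 from 0.85 to 0.93. Agreement was lower in others. In Rpl41 the range was from -0.012 to 0.62, in Rpl22 it was from 0.14 to 0.37, and the single pairs of Rps20 (0.39), Rps9 (0.41) and Rps7 (0.46) were also under 0.5. Probe sets of a gene share the cell, the array and in part their target sequence, and these correlations are a description with no test.

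Correlations between members over the cells centred near 0. The median r between pairs of the 43 tested members was 0.0016, against -9.8e-05 over all pairs of tested genes. With deposited values the median r between the 36 bright members was 0.068. The mean of the 36, centred per gene, ran from -0.019 (cell 17) to 0.022 (cell 10), an SD of 0.012 over the cells. The mean of all 43 ran from -0.25 (cell 2) to 0.20 (cell 14). The 7 other tested members set this range, as their mean ran from -1.45 in cell 2 to 1.22 in cell 14. Quantile normalization gives the arrays a common distribution, so a change of all bright genes together would be hidden by it. The deposited values cannot settle this, as the normalization behind them is not known and may have removed such a change already. In those values the mean of the 36 ran from -0.031 to 0.036. Its Pearson's r with the median intensity of the arrays was -0.29 over 20 cells and 0.077 without cell 19, so the former rests on that cell.

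The bright ribosomal protein genes had near equal means in both clusters of cells. Cells were split by clustering on 500 variable genes, with members, translation genes and lineage markers left out. The cluster higher in epiblast markers relative to primitive endoderm markers was then named epiblast-like. The direction of these markers between clusters is thus in part set by the naming and is no independent check of it. Fgf4 was above the floor in 10 of 10 cells of one cluster (epiblast-like) and 0 of 10 of the other, and Nanog in 10 and 8. Gata4 was above it in 0 cells of the former and in 10 of the latter (primitive endoderm-like), and Gata6 in 4 and 10. Over the full marker lists, 8 of 8 epiblast markers had the higher mean in epiblast-like cells. So did 1 of 8 primitive endoderm markers, Sox7, at 6.43 against 6.40 and above the floor in 4 and 3 cells. The split was weak (mean silhouette 0.11). The clusters come from the same arrays, so their differences are descriptions without a test. The median difference of members, epiblast-like minus primitive endoderm-like, was -0.0033, against 0.033 over all genes. The mean was higher in epiblast-like cells for 19 of 43 members (44.2%), against 53.6% of all genes. A difference of at least 1 log2 unit was found for 1 member (2.33%), against 18.5% of genes. No bright member could reach it, as their widest distance from the lowest to the highest cell was 0.77. The genes behind these backgrounds also include the 500 that made the split, while members were left out of it. These contrasts therefore cannot show whether members depended less on the cluster than other genes.

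The differences of the 36 bright members ran from -0.17 to 0.046. Rps27l was at the lower end. It was at 13.03 ± 0.13 in epiblast-like cells (12.74 to 13.17, n = 10) and 13.20 ± 0.099 in primitive endoderm-like cells (13.01 to 13.34, n = 10), so the ranges overlapped. The other probe sets of Rps27l differed by -0.15 and -0.13. When low values were raised to the floor, the clusters held 12 and 8 cells and the difference was -0.11, within the larger SD of 0.15. Rpl22, which also binds RNA outside the ribosome, was at 13.29 ± 0.029 and 13.34 ± 0.025. Of its other probe sets, 1 had equal means of 12.94 and the other had 9.35 and 9.99. Of all genes, which include the 500 that made the split, 8.12% had a difference above the larger SD of the clusters. Rps27l and Rpl22 were the members whose difference exceeded this SD (4.65% of 43). With deposited values neither exceeded it (Rps27l -0.13 against an SD of 0.14, Rpl22 -0.036 against 0.047), and without x_at and s_at probe sets Rpl22 did not (-0.015 against 0.057).

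All wider differences were in dim members, within their spread. Rpl14 was at a difference of 1.05 (SD over all cells 1.90), Rps25 at 0.68 (SD 1.52), Rps27 at 0.57 (SD 1.43), Rps6 at 0.38 (SD 1.75) and Rpl27a at 0.28 (SD 0.41). On the other side were Rpl12 at -0.78 (SD 1.41), Rps16 at -0.38 (SD 0.44) and Rpl3l at -0.22 (SD 0.88). The summed trophectoderm markers, centred per gene and averaged, ran from -1.11 to 0.78 in the epiblast-like cluster and from -0.60 to 0.49 in the other, with 4 of 11 higher in the former.

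The 5 lists of other translation genes each had a lower median level and a larger median SD than the members, with no test of the difference. Single genes went against this, such as Eef1a1 and Eif5a (13.17 ± 0.053), whose levels were above and SDs below the members' medians. Of 4 further cytosolic ribosome genes, Rpsa was at 13.19 ± 0.090 (SD, n = 20) and Fau, which fuses a ubiquitin-like domain to a small subunit protein, at 12.91 ± 0.075. Rpl22l1, the paralog of Rpl22, was at 12.43 ± 0.30 with a variance ratio of 5.20. Rpl7l1, a relative of Rpl7, was at 10.66 ± 0.25 in the epiblast-like cluster and at 9.93 ± 0.38 in the other. Elongation factors and other genes known from the literature for pyrimidine-tract messages (7 genes) had a median SD of 0.095. Their ratio was below 1 in 3 genes, against 30.5% of all tested genes. Their lowest ratios were those of Eef1b2 (0.32) and Eef1a1 (0.50, level 13.40 ± 0.040), and their highest those of Eef1d (2.99) and Tpt1 (2.62).

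Initiation factors (35 tested) had a median SD of 0.34 and a ratio below 1 in 11 genes. The background for this count, here and in the next 2 lists, was 30.5% of all tested genes. Their ratios ran from the helicase Eif4a1 (0.63) and Eif2b5 (0.68) at the low end to Eif2b3 (8.49) and the Y-linked Eif2s3y (17.3). Ribosome biogenesis genes (43 tested) had a median SD of 0.50 and a ratio below 1 in 10. The nucleolar chaperone Npm1 (0.26, level 12.94 ± 0.043) and Nmd3 (0.45) were the lowest, and Sbds (3.86) and the RNA polymerase I subunit Polr1e (9.23) the highest. Mitochondrial ribosomal proteins (76 tested), which serve the separate ribosome of mitochondria, had a median level of 10.35, a median SD of 0.60 and a ratio below 1 in 18. Their lowest were Mrps23 (0.24) and Mrps36 (0.52), and their highest Mrps5 (4.56) and Mrps2 (4.44). In limma's variance fit 0 genes of each list were called even (background 2.33%) and 0 were called variable (background 0%). At an unadjusted p under 0.05, 1 biogenesis gene (2.33%), 1 mitochondrial gene (1.32%) and 0 of the others were low, against 13.4% of all tested genes.

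A pyrimidine tract near the annotated start was found for 19 of the 39 members in the promoter table (48.7%), against 5718 of 27025 genes (21.2%). The motif searched was, on the transcribed strand, a C within 5 bases of the start followed by at least 4 bases that are each C or T. Among initiation factors the share was 26.7%, among mitochondrial ribosomal proteins 25.4% and among biogenesis genes 20%. It was 2 of 4 for the further cytosolic ribosome genes (50%), and 1 of 5 for the elongation list (20%), whose genes were listed for such tracts. As the sequences above show, Rpl39 and Rps27l had a tract of 5 bases, Rps27 and Rplp2 of 9 and Rpl35 of 16, while Rplp0, Rpl39l, Rps4x and Rps3 had no match. The median variance ratio was 0.97 for the 19 tested members with one and 0.53 for the 18 without, and the median SD was 0.062 and 0.054. Members read by dim probe sets were unevenly placed. Rpl12, Rpl14, Rpl27a, Rps27 and Rps6 were among those with a tract, and Rps25 among those without. The ratios were not compared among bright members alone, and the difference was not tested. An annotated start can lie some bases from the start in use, and a match is a description of these letters.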

How the data were processed

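Each of the 20 arrays held the amplified cDNA of 1 cell, labelled with biotin by a one-cycle protocol, per the labels' protocols. Probe set intensity was deposited as linear values between 1 and 26615.9. For the software, background correction and normalization behind them, a name or version was not given in the sources used here. Of 45101 probe sets, 34958 were annotated to 1 gene, 932 to several and 9211 to none (64 of these controls) in GEO's platform annotation. Only the first were used, with the brightest by mean per gene, and all 45 members matched RefSeq.

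As the 2%-trimmed means ranged from 182.5 to 221.2, arrays were quantile normalized, and log2(intensity + 8.4946) was taken, where the pseudocount is the median of the arrays' 25th percentiles. An array's floor was the 95th percentile over 164 probe sets of unrelated-tissue and chemoreceptor genes, with 27.2% to 32.0% of its probe sets above. Genes above it in at least 3 cells were tested (10423). Variances were set against a mean trend with limma 3.58.1 in R 4.3.3 (squeezeVar, F test in each tail, Benjamini-Hochberg at 0.05). In simulated data on these 10423 genes with variances as spread as the fitted prior, 0 of 200 genes lowered 4 times and 96 of 200 lowered 16 times were called even, so a count of 0 says little. Clusters came from Ward's method. No array duplicated another. Precision is limited by the number of arrays and by signal over the floor.

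The members and lists were chosen with earlier results of these data known. The rule for named genes took the paralogs and partners, the stalk, the 4 lowest and 4 highest variance ratios per subunit, the members dim in most cells, the 4 largest cluster differences each way, the 4 widest probe set gaps, 2 lowest and 2 highest of each related list, and lineage markers. Rpl22, Rps15, Rps9, Rps24, Rpl7, Rpsa, Fau and Eif5a, with the bright set and its bands, were taken after their values were seen. Alternatives were the deposited values, the 10th percentile as pseudocount, no filter, the mean of all probe sets, no x_at or s_at probe sets, values raised to the floor, and leaving out cell 19.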

Additional observations from a re-analysis of the deposited data

Results flagged for a closer look

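Probe sets annotated to several genes stood outside the measurement of the members, and their signal was above the floor of the arrays. Of the 110 that list a symbol of the family, 90 were above the floor in all 20 cells, with means from 7.75 to 13.66 and a median SD of 0.050. Of the 20 that list a member whose own probe set was not above the floor in every cell, 19 were above it in all 20 cells.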

How the results depend on the processing

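Of 63 recomputed values (9 results under 7 alternatives), 55 were counted as unchanged. This meant a count of 0 that stayed 0, or a value within a factor of 1.5 of the reported one. For the correlation, the level percentile and the cluster difference it meant a change below a spread in the reported setting. The bound was wide: the median SD of members was 0.085 with the mean of all probe sets and 0.072 without x_at and s_at probe sets, from 0.057, and both counted as unchanged. The count of members called even, 0 in the reported setting, was 1 with no filter on low values (Rps3, background 1.21%), 1 with the mean of all probe sets (Rps4x, background 2.08%) and 5 with values raised to the floor (Rpl27, Rpl41, Rps14, Rps26 and Rps3, background 3.18%). The median variance ratio was 0.26 with no filter and 0.27 with values raised to the floor, from 0.60. Both settings change the fitted trend at low levels, and the cause was not tested further. Without x_at and s_at probe sets the median level percentile was 99.7, from 99.8, the range of the mean over members was 0.78, from 0.44, and 29 of 40 measured members were above the floor in all cells. With low values set to the floor that range was 0.28. The cause was not tested. The median cluster difference was 0.0029 with deposited values, where the clusters held 11 and 9 cells. Cells 6, 10 and 16 changed sides under some alternatives. Rps27l, Rpl39l and Rps4l kept ratios above 1 under all 7 alternatives, from 1.11 (Rps4l) to 3.97 (Rps27l). Most genes had a ratio above 1, and the place against the median ratio of all tested genes was not kept. With the mean of all probe sets Rps27l (1.62) and Rpl39l (1.53) were both below that median (1.64). Rpl39l was also below it with no filter (1.34 against 1.61) and with values raised to the floor (1.45 against 1.50), while Rps27l was above it in both (1.625 and 1.85). No paired analysis was possible because the cells formed 1 group. The number of arrays and the signal over the floor limit the dim members most.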
